A study of Homo sapiens with 6 samples.

Results

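The gene set comprised 10 regulators of the G1 phase of the cell cycle, namely the D-type cyclin genes CCND1, CCND2 and CCND3, the kinase genes CDK4 and CDK6, the inhibitor genes CDKN1A, CDKN2A and CDKN2B, the retinoblastoma gene RB1 and the replication licensing gene CDC6. The genes were chosen by name, with earlier results of these data known. Every H3K27ac peak that overlapped the gene body (GENCODE v44) or lay within 50 kb of it was assigned to the gene. This gave 53 unique peaks out of 30784 in the whole list. The sum over genes was 59, because CDKN2A and CDKN2B are neighbours and shared all 6 of their peaks. H3K27ac, an acetylated lysine of histone H3 found at active promoters and enhancers, was profiled by chromatin immunoprecipitation and sequencing (ChIP-seq) in SU-CCS-1. SU-CCS-1, an established cell line, derives from a human clear cell sarcoma (CCS), and its genotype, the EWSR1::ATF1 (EA1) fusion, is shared by all samples, so the series holds no line without the fusion. There were 3 H3K27ac samples and 3 input samples of sonicated chromatin without immunoprecipitation, all from this 1 line with no treatment named, and the labels do not say whether the replicates were separate cultures. The deposited list merges the H3K27ac data and gives the position of each peak, with no signal, no read count and no value per sample. An error between replicates therefore cannot be given for any value below. The study's methods state a sequencing depth for the libraries, but the list does not give the reads behind any peak, and the intervals printed cover counting only. A locus without a peak lay below the cutoff of the peak calling or was filtered, and may still be acetylated.

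D-type cyclins accumulate when growth signals reach a cell, and they bind and activate CDK4 and CDK6. The active kinases phosphorylate the retinoblastoma protein, which releases E2F transcription factors and lets genes for DNA replication, CDC6 among them, be expressed. The INK4 inhibitors p16 and p15 bind CDK4 and CDK6, whereas p21 acts on cyclin and CDK complexes more broadly and is a main target of p53. In melanocytic tumours this pathway is a frequent site of gain or loss, and CDKN2A is a familiar melanoma susceptibility gene.

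The labelled cell type was checked against marker genes. A promoter peak was defined as a peak within 3 kb of any annotated transcript start of the gene. It was found at 5 of 5 genes of the CCS and melanocyte lineage, against 63.4% of all protein-coding genes. The widest promoter peak measured 18.04 kb at SOX10, 5.53 kb at PMEL, 3.39 kb at MITF, 1.64 kb at MLANA and 1.01 kb at S100B. The PMEL peak was also a promoter peak of CDK2. None of 5 genes that define other cell types (MYOD1, MYOG, PTPRC, EPCAM and PECAM1) had a promoter peak.

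A promoter peak was present at 9 of the 10 G1 regulators. Among all 20015 protein-coding genes, 63.4% had one. CCND2 was the gene without. At 8 of the 10, the start of the MANE Select transcript, the reference transcript agreed between RefSeq and Ensembl, lay inside a peak, against 54.1% of the 19061 protein-coding genes with such a transcript. The exceptions were CCND2 and CDC6. Several promoter peaks per gene were common in the set, with 7 of 10 genes holding 2 or more, against 19.2% of protein-coding genes. Annotated starts ranged from 3 for CDKN2B to 18 for CCND3, and a gene with many starts has more chances to hold a promoter peak. In all, 20 peaks were promoter peaks of the G1 regulators themselves, 19 were promoter peaks of neighbouring genes alone, and 14 were distal, which means beyond 3 kb of any annotated start. The distal share was 26.4% (95% Wilson interval 16.4 to 39.6) against 38.7% of all peaks. A distal peak occurred in the window of 7 of the 10 genes, against 35.4% of protein-coding genes. CDKN2A and CDKN2B both count here through the same 2 distal peaks. Windows ranged from 106.403 kb for CDKN2B to 395.693 kb for RB1, and a longer window has more chances to hold a distal peak. The windows of CCND1, CDK4 and CDKN1A held no distal peak.

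**Figure D1:**
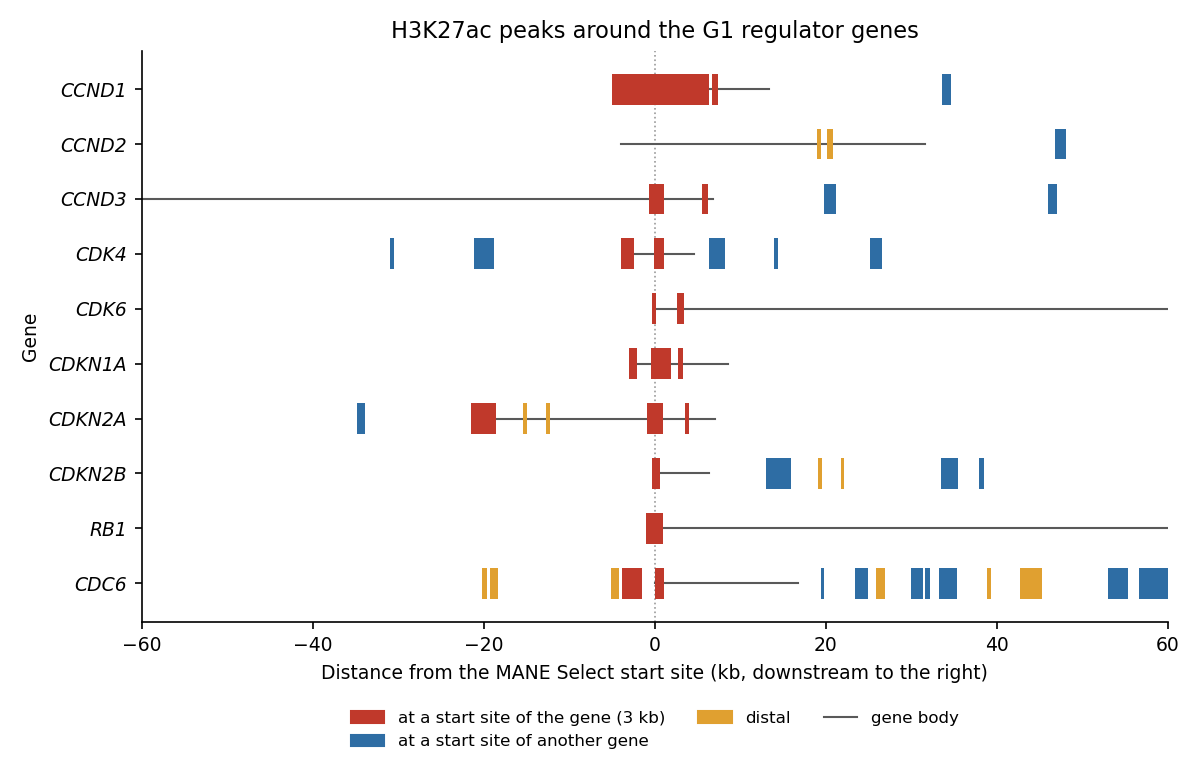
Position of H3K27ac peaks (coloured boxes) along the 10 genes, in kb from the MANE Select start, with each gene drawn so that transcription runs to the right and the gene body as a grey line. Of the 59 peaks counted per gene, 50 fall within the 60 kb shown on each side, and the other 9 belong to CCND3 (3), CDK6 (2) and RB1 (4); the 11.34 kb box over the start of CCND1 and the run of boxes downstream of CDC6, over RARA, stand out.

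The counts depended on the limits of these definitions. With flanks of 100 kb, 72 peaks in place of 53 were assigned to the G1 regulators. With a promoter window of 1 kb, the distal share was 35.8% in place of 26.4%. The share over all peaks also depends on the window and is not given for 1 kb. The 35.8% is therefore not to be set against the 38.7% of all peaks, which holds for 3 kb. The peaks just inside the 50 kb limit lay 39.804 kb from CDC6 and 39.134 kb from CCND3, and the first ones outside lay 52.957 kb from CDK4 and 54.635 kb from RB1. At the 3 kb promoter limit, the outermost peaks inside lay 2.64 kb from a start of CDKN1A and 2.026 kb from a start of CCND3. The nearest outside lay 3.795 kb from a start of CDK4 and 4.152 kb from a start of CDKN2A.

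The sequences below show the start regions of a kinase, a licensing gene and an inhibitor, because the peak edges fell differently on each. They are the 250 bases upstream of the start in RefSeq (GRCh38.p14), written 5′ to 3′ on the strand of the gene. The last 120 bases of the CDK4 sequence (chr12:57752311-57752560, minus strand) lay inside a peak, with the 5′ part outside it, and the capitals mark the E-box CACGTG. No base of the CDC6 sequence (chr17:40287629-40287878, plus strand) lay inside a peak. All 250 bases of the CDKN2B sequence (chr9:22009306-22009555, minus strand) lay inside a peak, and the capitals mark TGACG, the half-site of the ATF/CREB motif.
CDK4 upstream: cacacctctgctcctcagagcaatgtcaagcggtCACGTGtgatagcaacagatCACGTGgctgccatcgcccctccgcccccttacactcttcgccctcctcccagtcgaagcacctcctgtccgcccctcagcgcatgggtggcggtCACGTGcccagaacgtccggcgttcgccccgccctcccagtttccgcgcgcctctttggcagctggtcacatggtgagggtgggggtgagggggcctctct
CDC6 upstream: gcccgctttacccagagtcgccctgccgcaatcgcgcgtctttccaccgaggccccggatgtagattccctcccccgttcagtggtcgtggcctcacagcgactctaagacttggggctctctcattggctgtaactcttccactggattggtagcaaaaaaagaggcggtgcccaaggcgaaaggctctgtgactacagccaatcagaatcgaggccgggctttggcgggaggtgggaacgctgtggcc
CDKN2B upstream: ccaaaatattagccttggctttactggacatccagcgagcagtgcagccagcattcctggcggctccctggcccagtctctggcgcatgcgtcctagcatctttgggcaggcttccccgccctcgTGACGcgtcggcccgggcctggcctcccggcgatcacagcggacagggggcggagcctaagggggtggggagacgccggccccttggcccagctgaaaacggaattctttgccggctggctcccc

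The table of RefSeq promoters held 12 start regions of 8 of the genes. CCND1 and CCND2 were not in it, and its RB1 entry was an alternative start. Motifs were searched on both strands, a palindrome was counted once, and shares refer to the 250 upstream bases of 35116 RefSeq promoters. The E-box, the sequence bound by MYC, MITF and related factors, occurred 216, 196 and 101 bases before the start of CDK4. At least 1 E-box was present in 6.34% of promoters, and 3 or more in 28 promoters (0.0797%). A share for 3 or more is given for no other motif. CDK4 was picked from 12 sequences searched for several motifs, so nothing is read from the low share. TGACG stood 125 bases before the start of CDKN2B, and 21.2% of promoters held it. It also stood 74 bases before a second RefSeq start of CDK6. TGACGTCA, TGANNTCA, TGAGTCA and the E2F forms listed further on were not found in any of the 12 sequences. Other E2F sequences were not searched for. The CDC6 sequence holds TTTGGCGG, which differs from the listed form TTTGGCGC only in its last base. A match of letters is a description and does not show that a factor was bound.

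Among the D-type cyclins, CCND1 carried by far the most acetylated sequence at its start. CCND1, which encodes cyclin D1, spans chr11:69641156-69654474 on the plus strand. Its main peak (chr11:69636221-69647560) was 11.34 kb wide, reached from 4.935 kb upstream to 6.404 kb downstream of the start, and held 5 of the 6 annotated starts. In width it ranked 62 among the 30784 peaks. Only 47 other protein-coding genes had a wider promoter peak, which placed CCND1 at percentile 99.6 of the genes with a promoter peak. A promoter peak wider than 10 kb was present at 1 of the 10 G1 regulators, against 0.385% of protein-coding genes. This peak made up 31.8% of the 35.68 kb in promoter peaks of the set.

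A second CCND1 peak of 0.66 kb (chr11:69647851-69648510) was centred in intron 4 and held the remaining start. A gap of 290 bases in intron 3 separated the pair. The gap held the AP1 motif TGAGTCA, which is shown with its surroundings because it lay between the peaks and not inside them. It stands at chr11:69647748-69647776 on the plus strand, with the motif in capitals, 6603 bases downstream of the start.
CCND1 gap: ttggttatgttTGAGTCAacagtggggct

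The only other peak of the CCND1 window was 1.02 kb wide (chr11:69674781-69675800) and lay at the start of LTO1, 20.307 kb past the end of CCND1. No distal peak was called in the window. The main peak contained 6 E-boxes, at 4495, 3082 and 559 bases upstream and at 3317, 4356 and 4610 bases downstream of the start. As many were found in 5 of the 40 peaks of like width (within 10%). Shares of this kind are printed for a few of many pairs of peak and motif. Peaks of like width were not matched for GC content. An E2F form stood 147 bases and a TGACG 54 bases upstream of the start.

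CCND2, which encodes cyclin D2, differed from CCND1 and CCND3 in having no promoter peak. The gene spans chr12:4269771-4305353 on the plus strand and has 6 annotated starts. The nearest peak lay 13.921 kb from any of these starts. It was 0.54 kb wide (chr12:4292721-4293260) and was followed after 640 bases by a peak of 0.70 kb (chr12:4293901-4294600). Both were distal and lay in intron 4. The last peak of the window, at 1.27 kb (chr12:4320581-4321850), covered the start of TIGAR, which encodes a fructose bisphosphatase regulated by p53. It held the only match to the paired p53 consensus without a mismatch in any of the 53 peaks. The match, in intron 1 of TIGAR (chr12:4321615-4321636, plus strand), is printed with the decamers in capitals and the 2-base spacer in lower case. A match with at most 1 mismatch was present in 2.70% of the peaks of like width.
TIGAR peak: AGACATGTCCacAGACTTGTCT

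CCND3, which encodes cyclin D3, had moderate peaks at several of its starts. The gene (chr6:41934934-42050357, minus strand) extends over 115.424 kb because long transcripts begin far upstream of the MANE Select start. A peak of 1.67 kb (chr6:41940751-41942420) covered the MANE Select start, and its width stood at percentile 53.7 of genes with a promoter peak. At the outer end of the gene, peaks of 0.77 kb (chr6:42048471-42049240) and 0.87 kb (chr6:42050171-42051040) covered the starts of the long transcripts and were also promoter peaks of TAF8, a subunit of TFIID that is transcribed away from CCND3. The gap between them was 930 bases. A peak of 0.69 kb (chr6:41935551-41936240) in the 3′ UTR was counted as a promoter peak because it lay 2.026 kb from an annotated start. A distal peak of 0.62 kb (chr6:42007751-42008370) lay between these groups, inside the gene body. The remaining peaks of the window lay at BYSL and MED20 (1.45 kb) and at USP49 (1.05 kb).

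**Figure D2:**
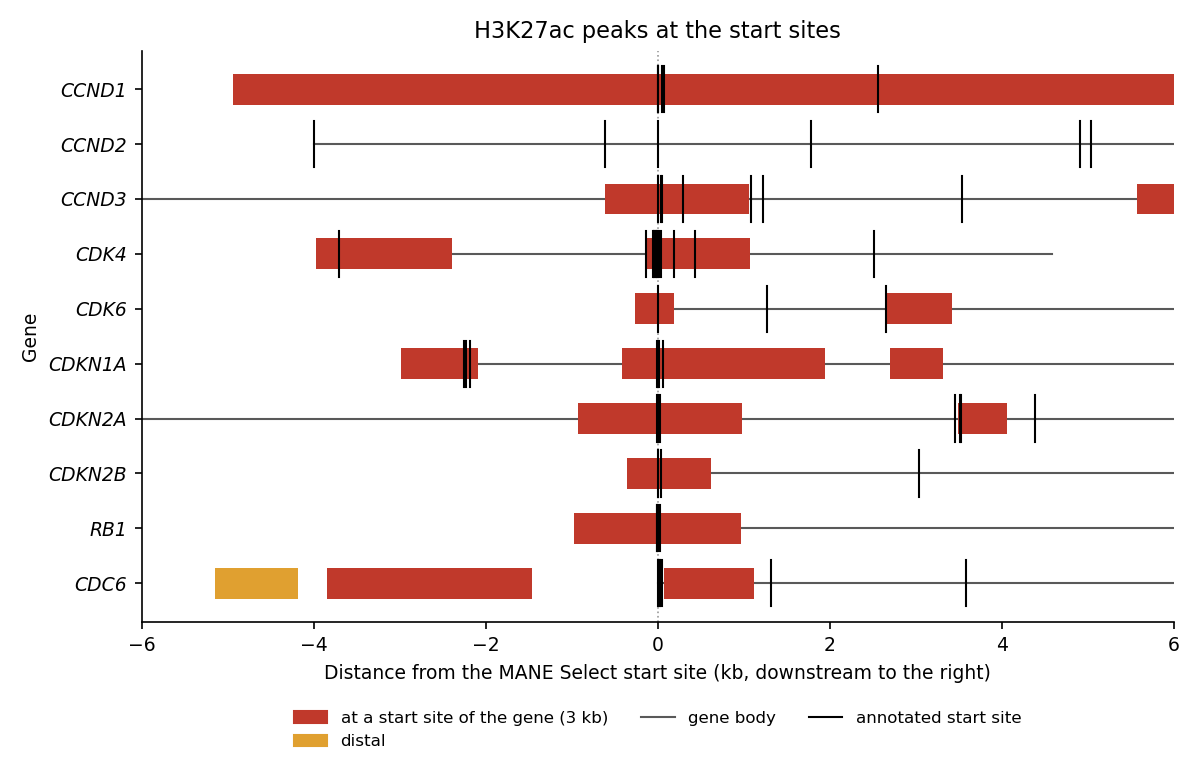
H3K27ac peaks (boxes) and every annotated start (black ticks) within 6 kb of the MANE Select start of each gene, in kb, with transcription to the right. The start lies inside a peak in 8 genes, in a gap of 1530 bases at CDC6 and away from any peak at CCND2; the CCND1 and CCND3 peaks at the right edge run on to 6.404 and 6.257 kb.

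The kinase genes had narrower promoter peaks than CCND1. CDK4 spans chr12:57747727-57756013 on the minus strand. A peak of 1.20 kb (chr12:57751231-57752430) covered the MANE Select start and 11 of the 14 annotated starts, and ended 120 bases upstream of it. The next upstream peak was 1.58 kb wide (chr12:57754701-57756280), began 2.391 kb before the MANE Select start, and held 1 further CDK4 start. Both were also promoter peaks of MARCHF9, a ubiquitin ligase gene in the opposite direction. The wider of the pair stood at percentile 49.3. The 2270 bases between them held 3 E-boxes, so that of the E-boxes printed above the 2 distant ones lay outside the peak and the nearest one inside. Inside the 1.20 kb peak were 2 E-boxes and 1 TGAGTCA.

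The rest of the CDK4 window was filled by neighbouring promoters. Of its 7 peaks, 5 lay at the starts of other genes only, and these covered 6.03% of the window against 2.57% for the pair at CDK4. They were peaks of 1.87 and 0.41 kb at AGAP2 and TSPAN31, of 1.34 kb at the antisense gene AGAP2-AS1, of 0.57 kb at TSFM, and of 2.34 kb (chr12:57771111-57773450) at METTL1, EEF1AKMT3 and CYP27B1. METTL1 encodes a tRNA methyltransferase, and CYP27B1 encodes the enzyme that activates vitamin D. The METTL1 peak held the only full ATF/CREB motif TGACGTCA among the 53 peaks, in intron 1 of METTL1. It is printed with its surroundings (chr12:57771841-57771870, minus strand) because this is the motif of the DNA-binding domain that ATF1 gives to the fusion. A TGACGTCA was present in 4.73% of the 1841 peaks of like width and in 2.58% of all peaks.
METTL1 peak: gatcagatgggTGACGTCAgtttttggggg

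CDK6, by contrast with CDK4, had little peak sequence for its size. The gene (chr7:92604921-92836573, minus strand) is 231.653 kb long. A peak of 0.46 kb (chr7:92836381-92836840) covered the MANE Select start and was the narrowest promoter peak of the set. A peak of 0.77 kb (chr7:92833151-92833920) followed downstream after a gap of 2460 bases and covered a second start. Its width stood at percentile 11.1 of genes with a promoter peak, the lowest of the 9 genes. A single distal peak of 0.47 kb (chr7:92717191-92717660) lay in intron 4, and a peak of 1.31 kb lay at FAM133B. Peaks covered 0.908% of the CDK6 window, at percentile 29.8 of protein-coding genes.

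All 3 inhibitor genes had promoter peaks. CDKN1A, which encodes p21, spans chr6:36676460-36687337 on the plus strand, and its window was the only one in which every peak was a promoter peak of the gene itself. A peak of 2.36 kb (chr6:36678301-36680660) covered the MANE Select start and stood at percentile 77.6. Upstream, a peak of 0.90 kb (chr6:36675731-36676630) covered 3 starts of longer transcripts and also lay near the starts of DINOL and PANDAR, noncoding RNA genes that are known to respond to DNA damage. Downstream, a peak of 0.62 kb (chr6:36681411-36682030) lay in intron 1. Gaps of 1670 and 750 bases divided the peaks. The 2.36 kb peak held 3 TGAGTCA sites at 722, 1512 and 1819 bases downstream of the start. As many were found in 0.892% of the 1794 peaks of like width. No p53 match with at most 1 mismatch to the paired consensus was found in the CDKN1A peaks or in the gaps between them, and sites with more mismatches were not searched for. Such a match lay in the 930-base gap of CCND3 and in the 2520-base gap between the CDKN2A peaks at exon 2 and at the MANE Select start.

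CDKN2A and CDKN2B lie next to each other on the minus strand of chromosome 9, and their 6 peaks formed a row over both genes. CDKN2A (chr9:21967752-21995301) encodes the unrelated proteins p16 and ARF from alternative first exons. The peak at the first exon of p16, the MANE Select start, measured 1.90 kb (chr9:21973881-21975780). The peak at the more distant starts, those of the ARF transcripts, was the wider at 2.97 kb (chr9:21993361-21996330), and stood at percentile 87.0. It was also a promoter peak of the antisense gene CDKN2B-AS1. A peak of 0.56 kb (chr9:21970801-21971360) lay on coding exon 2, where further transcript starts are annotated. Between the first exons lay distal peaks of 0.41 kb (chr9:21987141-21987550) and 0.45 kb (chr9:21989791-21990240). CDKN2B (chr9:22002903-22009305), which encodes p15, had a single promoter peak of 0.98 kb (chr9:22008681-22009660) over its start, at percentile 19.6. The 2.97 kb peak contained 5 TGACG half-sites, a number reached by 9.57% of the 1212 peaks of like width, and 1 E2F form.

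RB1, the gene of the retinoblastoma protein, spans chr13:48303744-48599436 on the plus strand and had 1 promoter peak. The peak was 1.94 kb wide (chr13:48302781-48304720), extended 0.970 kb upstream and 0.969 kb downstream of the MANE Select start, and stood at percentile 65.6. It was shared with RB1-DT, a noncoding gene transcribed in the opposite direction. An E2F form stood 25 bases upstream of the start and TGACG half-sites stood 49 and 31 bases upstream of it. With 5 TGACG in all, the peak was among the 3.47% of 2679 peaks of like width with as many. Inside the 295.693 kb gene body, a peak of 2.11 kb (chr13:48411341-48413450) in intron 17 covered a start of LPAR6, a lysophosphatidic acid receptor gene nested in RB1, and a peak of 1.5 kb lay at RCBTB2. This body extends beyond the MANE Select transcript, and the centre of the RCBTB2 peak lay outside that transcript. A pair of distal peaks of 1.11 and 0.69 kb lay 30.865 and 32.445 kb past the end of the body. Their distances from the nearest annotated RB1 start were 153.854 and 155.434 kb. RB1 counts among the genes with a distal peak only through this pair. No distal peak was called inside the RB1 body.

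CDC6, which encodes the loader of the replicative helicase onto origins, had the most densely covered window of the set. The gene spans chr17:40287879-40304657 on the plus strand. Its start lay in a gap of 1530 bases between a peak of 2.39 kb (chr17:40284031-40286420), which ended 1.459 kb upstream, and a peak of 1.05 kb (chr17:40287951-40289000), which began 72 bases downstream. Of the 19061 protein-coding genes, 300 (1.57%) had their start between peaks that lay within 5 kb on each side, with a median gap of 760 bases. The gap at CDC6 held an E2F form, 7 bases downstream of the start in the 5′ UTR (chr17:40287875-40287904, plus strand). It is printed because CDC6 is a known E2F target and the site lay outside the peaks.
CDC6 gap: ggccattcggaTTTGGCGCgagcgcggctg

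The upstream CDC6 peak held 4 TGANNTCA, the relaxed form of the ATF/CREB motif, between 3272 and 1689 bases before the start. As many occurred in 3.35% of the 1761 peaks of like width. It also held the other p53 match of the set, with 1 mismatch, while 7.10% of the peaks of like width held such a match. Together 15 peaks covered 19.1% of the CDC6 window, at percentile 97.6 of protein-coding genes. These 15 peaks were 28.3% of the 53. Only 2 of them were promoter peaks of CDC6. The largest share, 7 peaks with 12.23 kb, lay at starts of RARA, which encodes retinoic acid receptor alpha, and the widest of these measured 3.90 kb. The other 6 peaks were distal, 3 of them in WIPF2 upstream and 3 in introns of RARA downstream.

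**Figure D3:**
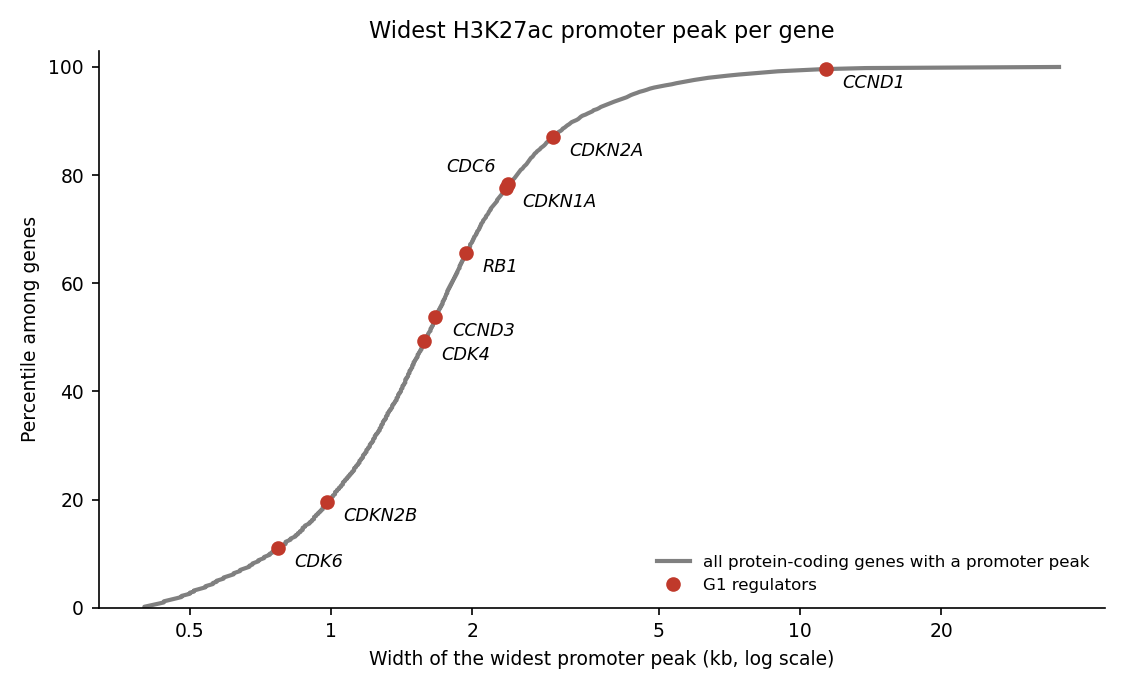
Width of the widest promoter peak of each gene (kb, log scale) against its percentile among the 12691 protein-coding genes with a promoter peak (grey line), with 9 G1 regulators as red points and CCND2 absent. CCND1 sits near the top at 11.34 kb, and CDK6 (0.77 kb) and CDKN2B (0.98 kb) sit low on the curve, at percentiles 11.1 and 19.6.

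In order of their widest promoter peak, the genes ran from CCND1 (11.34 kb) through CDKN2A (2.97 kb), CDC6 (2.39 kb), CDKN1A (2.36 kb), RB1 (1.94 kb), CCND3 (1.67 kb), CDK4 (1.58 kb) and CDKN2B (0.98 kb) to CDK6 (0.77 kb). The median over protein-coding genes with a promoter peak was 1600 bases (quartiles 1110 and 2250 bases), and 6 of the 10 G1 regulators lay above it, against 31.5% of all protein-coding genes. Both shares count genes without a promoter peak as not above the median. Among genes with a promoter peak, 6 of the 9 regulators lay above it, against 6304 of 12691 protein-coding genes. Whether neighbours in this order differ cannot be tested, since the width of a peak has no error here. The 20 promoter peaks of the set had a median width of 1015 bases, below the 1270 bases of all promoter peaks, and a median GC content of 61.9% (range 46.8 to 75.7) against 58.2%. The order depended on how peaks were divided. When peaks separated by up to 1 kb were joined, CDKN1A rose to 3.73 kb, CDC6 to 3.69 kb and CCND3 to 2.57 kb, and CCND1 to 12.29 kb. With a promoter window of 1 kb, the widest promoter peak of CDC6 was 1.05 kb.

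**Figure D4:**
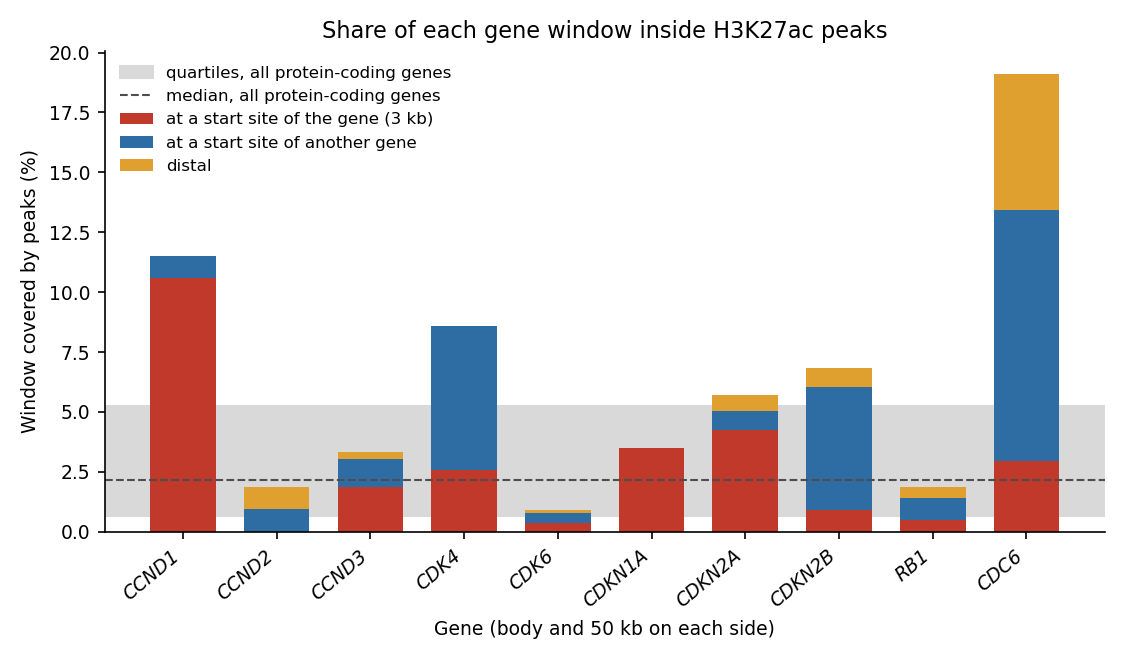
Percentage of each window (gene body with 50 kb on each side) inside H3K27ac peaks, split into promoter peaks of the gene, promoter peaks of other genes and distal peaks, with the median (2.14%, dashed) and quartiles (0.652% to 5.25%, grey) of all protein-coding genes. CDC6 (19.1%) and CCND1 (11.5%) are highest, and the CDC6 bar is mostly made of peaks at other genes and distal peaks.

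The share of the window in peaks gave another order. CDC6 (19.1%), CCND1 (11.5%, percentile 91.4), CDK4 (8.60%, percentile 86.3), CDKN2B (6.83%, percentile 81.3) and CDKN2A (5.70%, percentile 77.0) were above the upper quartile of protein-coding genes. CDKN1A (3.50%) and CCND3 (3.31%) lay above the median of 2.14%. RB1 (1.86%), CCND2 (1.85%) and CDK6 (0.908%) lay below it. CCND1 and CDC6 differed in make-up. Promoter peaks of the gene itself covered 10.6% of the CCND1 window but 2.95% of the CDC6 window, where starts of RARA accounted for 10.5% and distal peaks for 5.70%. The CDKN2B value counts the CDKN2A peaks, which covered 5.10% of its window, while its own promoter peak covered 0.921%.

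To ask which of these loci formed larger acetylated domains, neighbouring peaks were stitched over the same distance that the study used for its super-enhancers. In the absence of read counts, the regions were ranked by the summed width of their peaks. Of 17049 regions, 879 (5.16%) lay past the point where the scaled curve reaches a slope of 1, at a summed width of 7.97 kb. Among the G1 regulators, 1 of 10 overlapped such a region, against 7.58% of protein-coding genes. This was CCND1, at rank 418, whose pair of peaks filled 97.6% of a span of 12.29 kb. The CDKN2A and CDKN2B region (rank 1037) came next, with 6 peaks, a summed width of 7.27 kb and a span of 38.86 kb, of which peaks filled 18.7%. The CDK4 region (rank 1269) joined 5 peaks of 6.40 kb in a span of 30.54 kb. CDC6 (rank 2175) and CDKN1A (rank 2574) followed, and the best regions at CCND3 (rank 5076), RB1 (rank 5884, at LPAR6), CCND2 (rank 10596) and CDK6 (rank 10652) were far below the point. Ranking by span instead placed the CDKN2A and CDKN2B region (rank 222) and the CDK4 region (rank 403) past the point and CCND1 (rank 2107) below it. Stitching within 25 kb put CDC6 past the point as well, at rank 153, with CCND1 at rank 609. At that distance the CDC6 region also took in the peaks over RARA, of which those at RARA starts sum to 12.23 kb. The CDC6 region at rank 2175 had a summed width of 4.41 kb. These ranks describe peak width and are not the super-enhancer calls of the study.

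Across the wider pathway, promoter peaks were present at most genes. Like the 10 genes, the pathway genes were chosen with earlier results of these data known, so their shares are a description. Of 71 genes in 7 lists by role, 66 (93.0%, 95% Wilson interval 84.6 to 97.0) had one, and so did 57 of the 61 that are not among the 10 (93.4%, 84.3 to 97.4), both against 63.4% of protein-coding genes. All 7 CDK inhibitor genes, all 13 pocket protein and E2F genes and all 9 genes of ubiquitin ligases and their partners had one. The last list is labelled by G1 but includes CDC20, so the label does not hold for every gene. The genes without were CCND2 among 8 G1 cyclins and kinases, ORC3 among 15 replication licensing genes, CCNA1 and CCNB3 among 11 S and M phase cyclins and kinases, and TERT among 8 genes upstream of cyclin D and p21. CCNA1 encodes a cyclin known from the germ line. E-type cyclins, which follow cyclin D in late G1, had promoter peaks of 2.22 kb at CCNE1 and 2.68 kb at CCNE2.

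**Figure D5:**
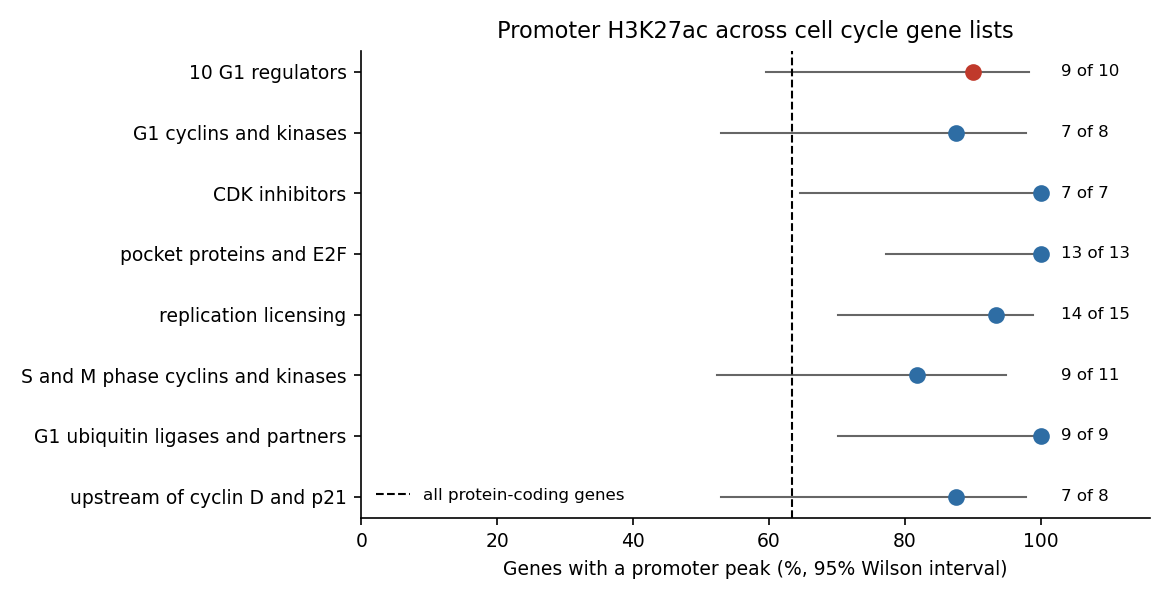
Percentage of genes with a promoter peak (points) and 95% Wilson interval (lines, counting only) for the 10 G1 regulators and 7 lists by role, with the number of genes at the right and the share of all protein-coding genes (63.4%) as a dashed line. Every point lies to the right of the line. The intervals of the 10 genes, the G1 cyclins and kinases, the S and M phase list and the upstream list extend across it. The 10 genes recur within several of the lists, so the intervals are not separate, and no test is drawn from them.

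CCND1 had the widest promoter peak of the 71 genes. It was followed by CDC25B (8.93 kb), a phosphatase gene for entry into mitosis, MYC (7.06 kb) and CKS1B (6.68 kb), which encodes a partner of the SKP2 ubiquitin ligase. The CDC25B peak did not cover the MANE Select start of the gene, and the CKS1B peak was also a promoter peak of SHC1. CDK2 was next at 5.53 kb, but this peak was also a promoter peak of the melanocyte gene PMEL, its neighbour, and did not cover the MANE Select start of CDK2. Of the 71 genes, 7 overlapped a region past the slope-1 point, namely CCND1, CDK2, E2F4, CDC25B, CKS1B, FZR1 and MYC. Among all protein-coding genes 7.58% did so, a share near that of the 71, and nothing is read from the count. The FZR1 region (rank 86), the CDC25B region (rank 89) and the CDK2 region (rank 220) ranked above that of CCND1. The widest FZR1 peak, at 4.54 kb, was also a promoter peak of MFSD12 and TEKTIP1 and did not cover the MANE Select start of FZR1.

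Finally, motif letters were counted over all 53 peaks and compared with all 30784 peaks, without a test. The full ATF/CREB motif TGACGTCA occurred once, or 13.2 times per Mb against 19.1 in all peaks. TGANNTCA occurred 25 times (329.8 against 466.3 per Mb), TGACG 46 times (606.9 against 664.6 per Mb) and TGAGTCA 10 times (131.9 against 150.5 per Mb). Each TGACGTCA also counts as a TGANNTCA and as 2 TGACG. The E-box CACGTG occurred 19 times (250.7 against 191.8 per Mb), with 6 of these in the main CCND1 peak. The E2F forms TTTCCCGC, TTTGGCGC, TTTCGCGC and TTTGCCGC occurred 7 times (92.3 against 63.3 per Mb), in 7 different peaks. The paired p53 consensus with at most 1 mismatch and a spacer of up to 13 bases occurred 2 times (26.4 against 28.8 per Mb). The matches were few, and the peaks compared were not matched for GC content or width. The shares printed above for single peaks were picked from many pairs of peak and motif, so nothing is read from a low share.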

How the data were processed

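H3K27ac ChIP-seq and input libraries of SU-CCS-1 were made in 3 replicates each, and groups were taken from the sample titles. Per the study's methods and the submitters' processing notes, the authors used BWA-MEM (0.7.10-r789) for alignment to hg38, removed duplicates with samtools, called broad peaks with MACS2 (2.2.6) over input and dropped ENCODE denylisted regions. The deposited file is 1 merged list with 4 columns (chromosome, start, end and name), with no score or count. Whether reads or peaks were merged is not given in the sources used here, and a broad call joins nearby enrichment, so widths depend on it.

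Coordinates were converted to count from 1. Peaks were compared with GENCODE v44 starts and bodies, stitched and scanned for motifs in Python (3.11.15) with numpy (2.4.6) and pysam (0.24.0), and the code was tested on simulated peaks. Upstream sequences came from RefSeq (GRCh38.p14). Genes in regions shared by X and Y were counted once. No test was made, since no value per sample exists. Wilson intervals cover counting only. The genes and lists were chosen with earlier results of these data known. Named genes were the 10 regulators, genes whose promoter or body holds a peak of their windows, the listed pathway genes and the cell type markers.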

Additional observations from a re-analysis of the deposited data

How the results depend on the processing

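Of 38 alternatives over 8 results, 27 stayed within 1.5 times the value or within its interval, and 11 moved. With the widest 25% of peaks alone, 5 of the G1 regulators (against 26.7% of protein-coding genes) and 33 of the 71 pathway genes had a promoter peak. The regulators lost besides CCND2, which had none, were CCND3, CDK4, CDK6 and CDKN2B. Peaks at the 10 genes fell from 53 to 27 in gene bodies alone, to 34 with flanks of 10 kb and to 24 with the widest 50% of peaks, where the distal share was 8.33%. The distal share over all of the widest 50% of peaks is not given, so the 8.33% has no comparison. Their summed width of 75.8 kb fell to 40.09 kb in gene bodies and 48.7 kb with flanks of 10 kb. Genes overlapping a region past the slope-1 point numbered 2 with stitching within 25 kb and 3 when ranked by span, where CDK4, CDKN2A and CDKN2B took the place of CCND1 (rank 2107). Motif matches numbered 110, and 16 in the central 200 bases of each peak. Fewer peaks or bases entered the smaller counts by construction. No paired analysis was possible because the list has no column for any replicate, and no replicate could be left out. The list does not give the reads behind a peak, which limits what an absent or narrow peak shows.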
